A study of Arabidopsis thaliana with 18 samples.

Results

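In Arabidopsis leaves sprayed with mock solution, 12 genes had lower transcript levels both in a mutant without several TGA transcription factors and in a mutant with impaired salicylic acid synthesis. They were selected by measured values. A member is an array probe set that names 1 gene, has a value on all 9 mock arrays, and has a mean at least 0.5 lower on the log2 scale than wild type in each mock treated mutant. Its difference between safener and mock in wild type had to lie between -0.6 and 0.8. Symbols of the families UGT, GST, BGLU, CYP, WRKY and ATG, plastid symbols and a short list of named genes were left out. Of 22746 probe sets without array controls, 7650 named 1 gene and had values on all mock arrays. Among those, 77 were lower in the TGA mutant, 192 in the salicylic acid mutant and 21 in both. The safener window removed 7 of the 21, and the list of names removed GRX480 and AT5G45000, which left 12 of the 13350 genes that a probe set names alone.

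The RNA came from rosette leaves of soil-grown plants at an age of 4 weeks and was hybridized to 18 Affymetrix ATH1 arrays, 3 biological replicates in each of 6 groups. The genotypes were wild type Col0, the mutant tga2tga3tga5tga6, called 4tga below, and the mutant sid2-2. Each was sprayed either with safeners, as a formulation of mefenpyr at 5 mM with isoxadifen at 7.2 mM, or with a mock solution that held the solvent DMSO. The sources used here do not say whether the mock solution also held the emulsifier of the formulation, how long after the spray leaves were harvested, or which ecotype the mutants had. Both mutants carry their defects in the whole plant. The mutated genes were not analysed here, because the annotation used names no probe set for them, so they do not check the labels.

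Salicylic acid is a plant hormone of defence against pathogens. TGA factors are bZIP proteins that bind DNA and recruit the coactivator NPR1, through which much of the transcriptional response to salicylic acid runs. They also take part in the response to xenobiotics such as safeners, which protect crops from herbicide injury. SID2 encodes the isochorismate synthase that makes most of the salicylic acid formed under stress.

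Between 14627 and 16408 probe sets had a value on each array. Each array correlated with the mean of the other arrays of its group at 0.98 to 0.995. The sid2-2 mock array of replicate 3 was the highest of its group for 8 of the 12 genes, and so were 4tga mock replicate 3 and Col0 safener replicate 1 for 7 of 12 each. The 4tga safener array of replicate 2 was the lowest of its group for 8 of 12. Of 9 leaf photosynthesis markers, 2 were measured (LHCB4.2 and RCA). Their summed level was 5439 to 7121 in Col0 safener and 7096 to 9179 over the other groups. RCA, which activates Rubisco, was higher in sid2-2 than in Col0 under safener (log2 difference 0.30, adjusted p = 0.0495). LHCB4.2 was not called in that comparison (-0.045, adjusted p = 0.876), and neither gene was called in 4tga against Col0. PYK10, the 1 measured of 4 root markers, ranged from 228 to 630, and under safener it was higher in 4tga than in Col0 (log2 difference 0.61, adjusted p = 0.0197) and lower in sid2-2 than in 4tga (-0.66, adjusted p = 0.0108). Of 3 guard cell markers FMA was measured, at 71.0 to 105, and of 3 phloem markers SWEET11, at 1221 to 2255. No marker of flower, trichome or xylem was measured, and the part of cell composition in the results was not tested. In whole leaves, fewer cells of a type and less RNA per cell cannot be told apart.

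Values below are linear intensities, and those of 3 arrays are given in the order of the replicate numbers. The mock differences and the Col0 safener response chose the genes, so they are described without a test. Tests were made in limma between the genotypes under safener, where the mutants' arrays took no part in the choice. The Col0 safener arrays did take part through the window, and both mutants were compared with the same Col0 arrays. Differences are on the log2 scale, and a gene was called at an adjusted p under 0.05 over all probe sets tested.

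Under safener, 9 of the 12 genes were lower in 4tga than in Col0 and none was higher. Over all probe sets tested, 4.23% were called lower and 8.81% higher in that comparison. In sid2-2, 8 of the 12 were lower than in Col0 and none was higher, against 4.17% lower and 8.94% higher over all probe sets. The window left out genes that fell by more than 0.6 under safener in Col0, such as AT1G73620 (-1.03). This can raise the counts of lower genes, and the shares over all probe sets had no such filter. The window also left out genes that rose by more than 0.8, such as AT3G13610 (1.16). The median difference of the 12 genes was -0.55 in 4tga and -0.82 in sid2-2, and the median over all probe sets was 0.06 and 0.09. AT1G02360, AT5G42250, AT5G09290, AT4G32870, AT3G29240, AT5G52540 and AT1G19960 were lower in both mutants. AT5G10695 and AT5G49680 were called in 4tga alone and AT5G60680 in sid2-2 alone, and AT2G20670 and AT5G19120 were called in neither. Without the Col0 safener array of replicate 1, the count of genes called lower in 4tga was 5. Without the sid2-2 safener array of replicate 1 or 3, the count in sid2-2 was 6. There AT5G09290 was not tested and AT5G60680 was not called.

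**Figure D1:**
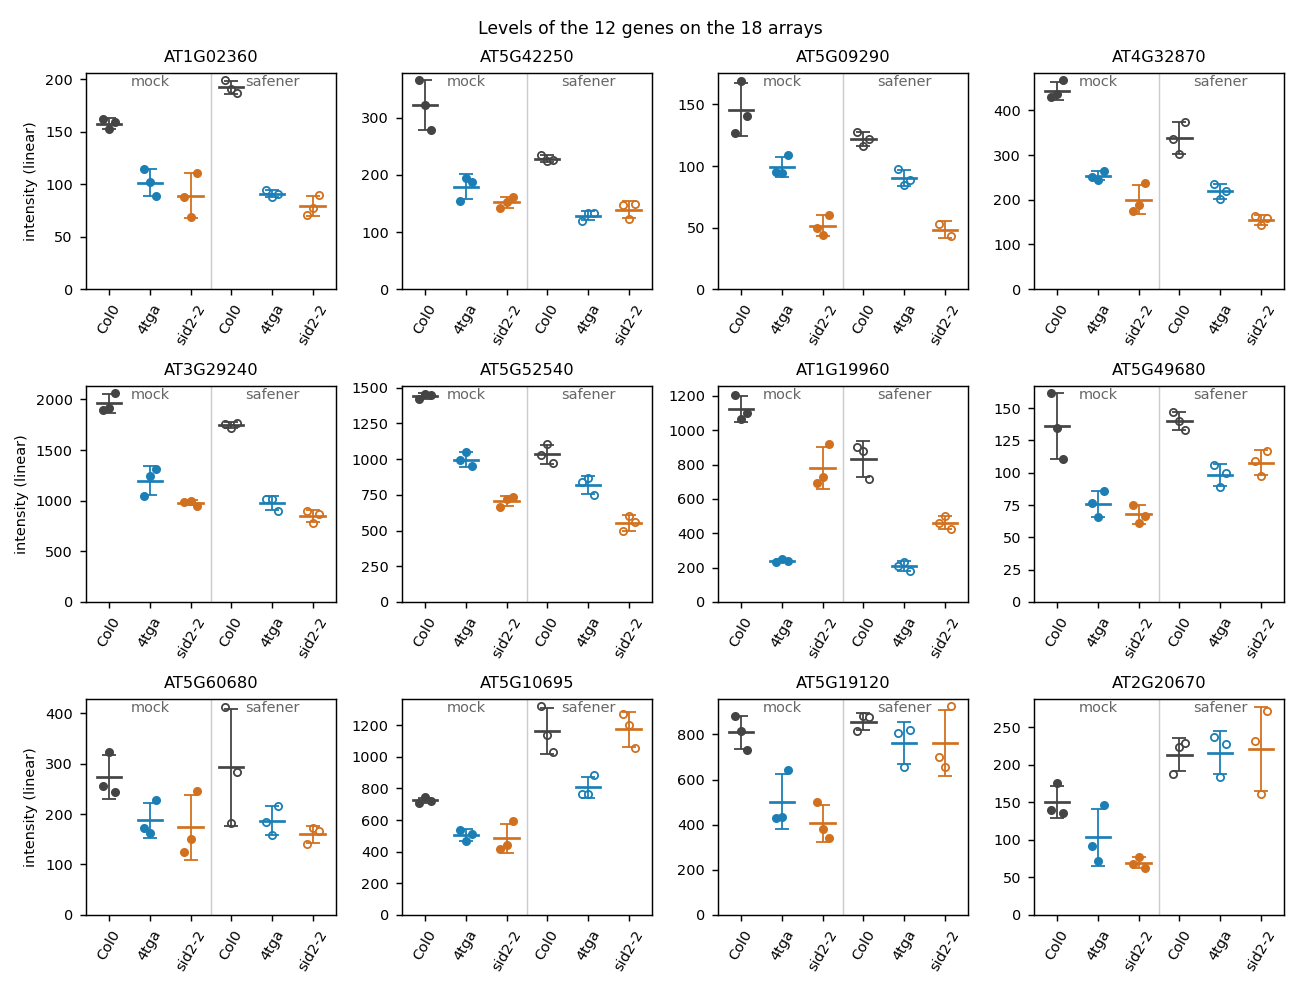
Intensity (linear axis from 0) of the 12 genes on the 18 arrays, with filled points for mock and open points for safener; horizontal lines are group means and bars are SD (n = 3, and 2 for AT5G09290 in sid2-2 safener). In the upper 2 rows all arrays of the mutants lie below those of Col0 under both sprays, while for AT5G19120 and AT2G20670 the 3 genotypes overlap under safener.

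Enzymes come first. AT1G02360 encodes a member of the chitinase family, enzymes that cleave the chitin of fungal walls. Its mock values were 162, 152 and 159 in Col0, 114, 102 and 88.5 in 4tga, and 87.9, 68.3 and 111 in sid2-2. Its safener values were 199, 191 and 187 in Col0, 94.8, 88.0 and 90.2 in 4tga, and 70.6, 76.9 and 89.5 in sid2-2. Every mutant array lay below every Col0 array under both sprays, and the 2 mutants overlapped. Under safener it was 2.11-fold lower in 4tga than in Col0 (log2 difference -1.08 ± 0.138 SE, adjusted p = 2.32e-05). In sid2-2 it was 2.44-fold lower (-1.29 ± 0.138 SE, adjusted p = 5.38e-06). The mock differences that chose it were smaller, at -0.64 in 4tga and -0.85 in sid2-2. Safener minus mock was 0.29 (log2) in Col0, without overlap between the sprays, and -0.15 in both mutants, with overlap. The signal was low (mean percentile 32.3 of listed probe sets). With 32 added to each intensity the safener difference from Col0 was -0.865 in 4tga and -1.02 in sid2-2.

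AT5G42250 encodes a member of the zinc-binding alcohol dehydrogenase family, oxidoreductases of small alcohols and aldehydes. On mock arrays it read 366, 322 and 279 in Col0, 154, 195 and 188 in 4tga, and 142, 153 and 161 in sid2-2. On safener arrays it read 235, 224 and 226 in Col0, 119, 133 and 134 in 4tga, and 147, 122 and 149 in sid2-2. Both mutants stayed below Col0 without overlap under both sprays. The safener difference from Col0 was -0.83 ± 0.117 SE in 4tga (1.78-fold lower, adjusted p = 6.34e-05). The same difference in sid2-2 was -0.71 ± 0.117 SE (1.64-fold lower, adjusted p = 0.000442).

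AT5G09290 belongs to the inositol monophosphatase family, phosphatases of inositol phosphates and related small molecules. Mock arrays gave 127, 169 and 141 in Col0, 95, 94.6 and 109 in 4tga, and 49.9, 43.7 and 60.5 in sid2-2. Safener arrays gave 128, 116 and 122 in Col0 and 97.6, 84.8 and 89.0 in 4tga. In sid2-2 safener the value of replicate 2 was blank, and the other arrays gave 53.3 and 43.3. The levels thus fell into 3 steps under either spray, Col0 above 4tga and 4tga above sid2-2, with no overlap between genotypes. Under safener sid2-2 was 2.53-fold lower than Col0 (-1.34 ± 0.145 SE, adjusted p = 7.77e-06, n = 3 and 2 arrays in limma). The signal was low, with the lowest mean rank of the 12 genes (percentile 26.3 of listed probe sets). With 32 added to each intensity the sid2-2 difference was -0.94. The 4tga difference was smaller (-0.43 ± 0.130 SE, 1.35-fold lower, adjusted p = 0.0352). That call was lost in 6 of 12 alternatives (adjusted p up to 0.127), namely quantile normalization and the omission of Col0 safener replicate 1 or 3 or of any 4tga safener array.

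Proteins with a binding or membrane domain, or a domain of unknown function, follow. AT4G32870 belongs to the superfamily of polyketide cyclases and lipid transport proteins, whose fold encloses a cavity for hydrophobic ligands. Its mock intensities were 429, 437 and 467 in Col0, 252, 245 and 264 in 4tga, and 174, 189 and 237 in sid2-2. Its safener intensities were 337, 302 and 374 in Col0, 236, 201 and 219 in 4tga, and 163, 143 and 159 in sid2-2. The 3 genotypes did not overlap under either spray, and sid2-2 was the lowest. The safener difference from Col0 was -0.62 ± 0.113 SE in 4tga (adjusted p = 0.000972). It was -1.12 ± 0.113 SE in sid2-2 (2.17-fold lower, adjusted p = 2.65e-06).

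AT3G29240 encodes a protein with the domain of unknown function DUF179. In mock leaves it was at 1895, 1919 and 2067 in Col0, 1042, 1241 and 1314 in 4tga, and 990, 998 and 951 in sid2-2. In safener leaves it was at 1758, 1718 and 1770 in Col0, 1021, 1016 and 902 in 4tga, and 898, 779 and 868 in sid2-2. Safener levels were below mock levels in each genotype without overlap, and the gap to Col0 was of similar size under both sprays. That gap under safener was -0.84 ± 0.097 SE in 4tga (1.79-fold lower, adjusted p = 7.11e-06) against -0.72 in mock. For sid2-2 it was -1.05 ± 0.097 SE (2.06-fold lower, adjusted p = 7.74e-07), and the mock means were 980 in sid2-2 and 1960 in Col0.

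AT5G52540 encodes a membrane protein with the domain of unknown function DUF819. Col0 mock arrays read 1418, 1457 and 1449, 4tga mock arrays 991, 1048 and 948, and sid2-2 mock arrays 664, 722 and 735. Col0 safener arrays read 1025, 1106 and 974, 4tga safener arrays 836, 866 and 746, and sid2-2 safener arrays 494, 601 and 563. Safener values were below mock values without overlap in each genotype, and sid2-2 was the lowest genotype under both sprays. Under safener sid2-2 was 1.88-fold lower than Col0 (-0.91 ± 0.095 SE, adjusted p = 3.8e-06). The 4tga difference was -0.34 ± 0.095 SE (1.27-fold lower, adjusted p = 0.0217). It was not called without Col0 safener replicate 1 or 2, without 4tga safener replicate 1 or 3, or in a fit to the 6 arrays alone (adjusted p up to 0.103).

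AT1G19960, for which no function is given here, differed most from Col0 in 4tga, both in mock and under safener. Its mock values were 1206, 1064 and 1101 in Col0, 232, 251 and 240 in 4tga, and 693, 727 and 918 in sid2-2. Its safener values were 903, 881 and 715 in Col0, 212, 235 and 181 in 4tga, and 461, 500 and 427 in sid2-2. The order Col0, sid2-2, 4tga held on all arrays of each spray, without overlap. Under safener 4tga was 3.98-fold lower than Col0 (-1.99 ± 0.124 SE, adjusted p = 1.21e-09), the largest difference of the 12 genes in that comparison. In sid2-2 the difference was -0.84 ± 0.124 SE (1.79-fold lower, adjusted p = 0.000162). In mock, sid2-2 was just inside the limit that chose the genes (-0.54).

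AT5G49680 encodes a large protein related to SABRE, which is known for its part in cell expansion. In mock it gave 162, 135 and 111 in Col0, 76.6, 65.7 and 85.7 in 4tga, and 75.4, 61.2 and 66.7 in sid2-2. Under safener it gave 147, 140 and 133 in Col0, 106, 89.2 and 100 in 4tga, and 109, 97.6 and 117 in sid2-2. Both mutants were above their own mock level under safener and still below Col0, without overlap. The safener difference of 4tga from Col0 was -0.51 ± 0.132 SE (1.42-fold lower, adjusted p = 0.0145), and it was not called without Col0 safener replicate 1 or 4tga safener replicate 2 (adjusted p up to 0.0756). The difference of sid2-2 was -0.38 (95% interval -0.66 to -0.10, adjusted p = 0.0632), which missed the threshold. The signal was low (mean percentile 29.2 of listed probe sets). With 32 added to each intensity the differences were -0.40 in 4tga and -0.30 in sid2-2. A second probe set of this gene had no value on any array.

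AT5G60680 belongs to a family of proteins related to the senescence regulator S40. Its mock values were 255, 323 and 243 in Col0, 173, 162 and 227 in 4tga, and 124, 150 and 246 in sid2-2. Its safener values were 413, 182 and 283 in Col0, 185, 159 and 216 in 4tga, and 141, 172 and 167 in sid2-2. The Col0 safener arrays spread more widely than those of the mutants, and sid2-2 overlapped Col0 in mock through its replicate 3. The sid2-2 difference under safener was -0.80 ± 0.250 SE (1.74-fold lower, adjusted p = 0.0418). It was not called in 6 of 13 alternatives (adjusted p up to 0.221), namely without Col0 safener replicate 1 or 3, without any sid2-2 safener array, or in a fit to the 6 arrays alone. The 4tga difference was -0.58 (95% interval -1.10 to -0.06, adjusted p = 0.134), and it was called without Col0 safener replicate 2 and with array weights.

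The last 3 genes, like AT5G49680, had higher safener than mock values in both mutants. AT5G10695 is given no function here. Its mock readings were 711, 744 and 723 in Col0, 540, 466 and 510 in 4tga, and 419, 445 and 591 in sid2-2. Its safener readings were 1320, 1141 and 1030 in Col0, 768, 765 and 886 in 4tga, and 1270, 1200 and 1053 in sid2-2. Under safener the sid2-2 arrays lay within the span of Col0, while all 4tga arrays lay below both. The 4tga difference from Col0 was -0.53 ± 0.126 SE (1.44-fold lower, adjusted p = 0.00906), and it was not called without Col0 safener replicate 1 (adjusted p = 0.0555). The sid2-2 difference was 0.02 (95% interval -0.25 to 0.28, adjusted p = 0.953).

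AT5G19120 belongs to the aspartyl protease family, enzymes that cleave proteins. In mock it stood at 880, 814 and 733 in Col0, 428, 433 and 643 in 4tga, and 499, 381 and 341 in sid2-2. Under safener it stood at 815, 880 and 876 in Col0, 807, 656 and 821 in 4tga, and 702, 654 and 927 in sid2-2. Both mutants were apart from Col0 in mock, and the genotypes overlapped under safener. The safener difference from Col0 was -0.18 in 4tga (95% interval -0.53 to 0.17, adjusted p = 0.529). It was -0.19 in sid2-2 (95% interval -0.54 to 0.16, adjusted p = 0.495).

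AT2G20670 encodes a protein with the domain of unknown function DUF506. Mock levels were 139, 175 and 136 in Col0, 91.8, 72.2 and 146 in 4tga, and 68.3, 77.3 and 62.3 in sid2-2. Safener levels were 188, 223 and 229 in Col0, 237, 183 and 227 in 4tga, and 231, 161 and 271 in sid2-2. In mock 4tga overlapped Col0 through its replicate 3, and under safener all genotypes overlapped. The safener difference from Col0 was 0.01 in 4tga (95% interval -0.43 to 0.45, adjusted p = 0.976). It was 0.02 in sid2-2 (95% interval -0.42 to 0.46, adjusted p = 0.959).

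**Figure D2:**
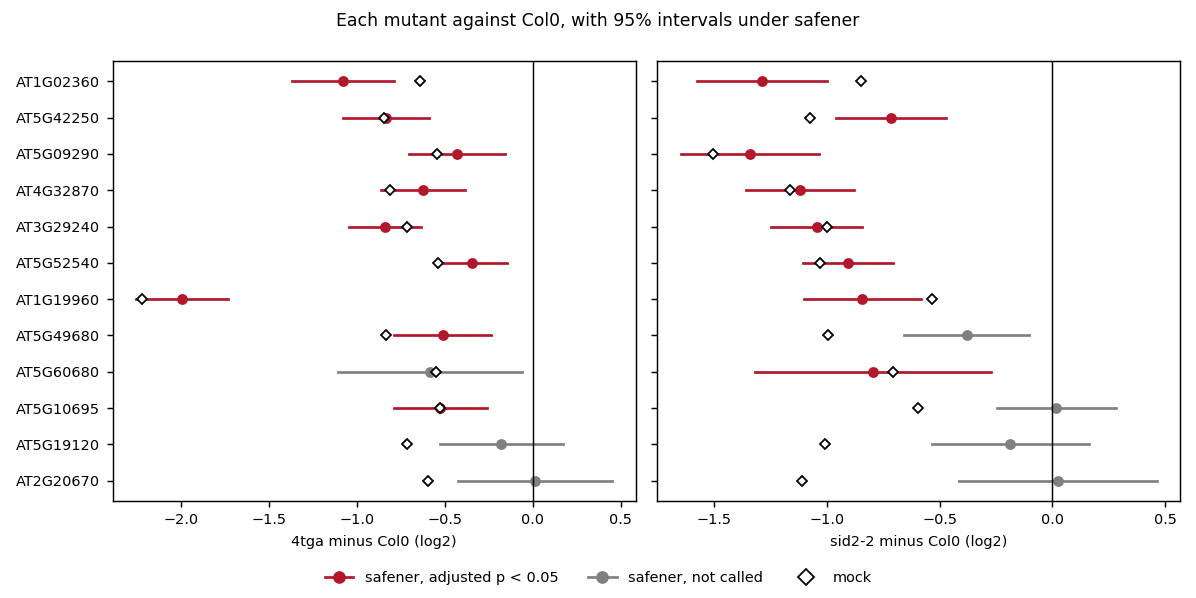
Difference of each mutant from Col0 on the log2 scale for the 12 genes; circles with bars are the safener estimates with 95% intervals (red where the adjusted p was under 0.05), and open diamonds are the mock differences that chose the genes. For AT2G20670 and AT5G19120 the safener intervals include 0 in both mutants, and for AT5G10695 in sid2-2.

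Separation without overlap gave a similar count. In mock, 11 of 12 genes were below Col0 on all arrays of 4tga and 11 of 12 in sid2-2. The background shares were 8.12% and 9.21% of probe sets, and since these arrays chose the genes nothing is read from the counts. Under safener, 9 of 12 were below Col0 without overlap in 4tga, against 13.2% of probe sets. In sid2-2 it was 9 of 12, against 9.78%. That count includes AT5G09290, which had a blank in sid2-2 safener, while the share covers probe sets with values on all arrays compared. The window bears on these safener counts too, and the shares had no such filter.

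The comparison of sid2-2 with 4tga under safener used no array that took part in the choice of the genes. The comparison asks where the loss of the TGA factors and the impaired hormone synthesis give different levels. Of the 12 genes, 3 were lower in sid2-2 and 2 were higher, and 7 were not called. Over all probe sets, 7.58% were lower and 7.90% were higher. The median difference was -0.11 for the 12 genes and 0.02 over all probe sets.

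AT1G19960 was 2.22-fold higher in sid2-2 than in 4tga under safener (1.15, 95% interval 0.89 to 1.41, adjusted p = 1.99e-06). AT5G10695 was 1.45-fold higher in sid2-2 (0.54, 95% interval 0.28 to 0.80, adjusted p = 0.0058). Lower in sid2-2 was AT5G09290, by 1.88-fold (-0.91 ± 0.145 SE, adjusted p = 0.000248). Its signal was low, and with 32 added to each intensity the difference was -0.61. The membrane protein gene AT5G52540 was lower by 1.48-fold (-0.56 ± 0.095 SE, adjusted p = 0.000361). The lipid transport superfamily gene AT4G32870 was lower by 1.41-fold (-0.50 ± 0.113 SE, adjusted p = 0.00507). All of these calls were kept under each alternative in which the gene was tested.

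For the other 7 genes the difference between the mutants was not resolved. AT3G29240 was the nearest to a call (-0.21, adjusted p = 0.169), its arrays did not overlap, and it was called with array weights. The interval for the chitinase gene AT1G02360 ran from -0.50 to 0.08. For AT5G19120 it ran from -0.36 to 0.34. Adjusted p values for AT5G42250, AT5G49680, AT5G60680 and AT2G20670 were 0.567, 0.573, 0.631 and 0.981. In mock, sid2-2 was below 4tga for 11 of the 12 genes on means, and AT1G19960 was the exception (1.68). Over all probe sets, 55.9% were higher in sid2-2 mock than in 4tga mock. Without overlap sid2-2 was below 4tga for 4 of the 12, beside 13.3% of all probe sets. These arrays chose the genes, so nothing is read from the counts.

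**Figure D3:**
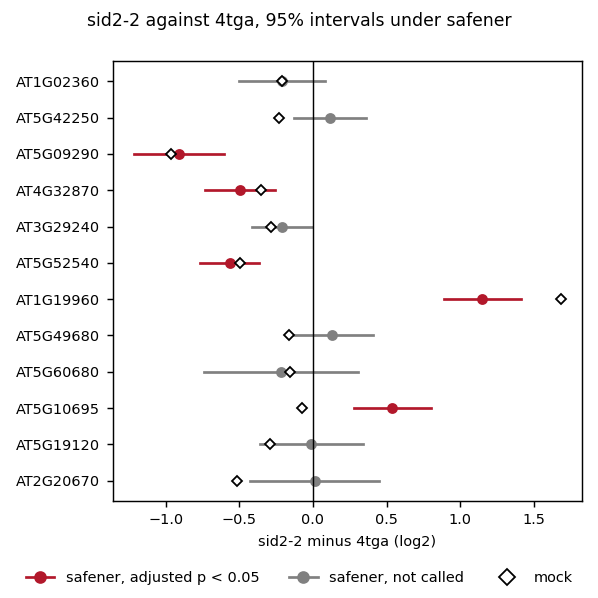
Difference of sid2-2 from 4tga on the log2 scale; circles with bars are the safener estimates with 95% intervals (red where the adjusted p was under 0.05), and open diamonds are the mock differences. AT1G19960 (1.15) and AT5G10695 (0.54) lie to the right of 0, and AT5G09290, AT5G52540 and AT4G32870 to the left.

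The safener minus mock difference within each genotype uses the mock arrays that chose the genes and is given with no test. AT2G20670 differed by 0.51 in Col0, 1.12 in 4tga and 1.65 in sid2-2. AT5G19120 differed by 0.09, 0.62 and 0.91 in the same order. For both genes the safener arrays of the mutants overlapped those of Col0, and 4 of 6 mutant arrays for AT5G19120 and 2 of 6 for AT2G20670 lay below the lowest Col0 array.

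AT5G10695 differed by 0.67 in Col0, 0.67 in 4tga and 1.29 in sid2-2. AT5G49680 differed by 0.06, 0.38 and 0.67. These 4 genes were above mock without overlap in 4tga, and the same 4 in sid2-2, beside 17.4% and 15.6% of all probe sets. For the other 8 genes the mutants' differences lay between -0.75 and 0.00. The medians over all probe sets were -0.08 in 4tga and -0.09 in sid2-2. Of these 8 genes, 4 were below mock without overlap in 4tga and 4 in sid2-2. The share of all probe sets below mock without overlap was not counted, so nothing is read from the downward counts.

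**Figure D4:**
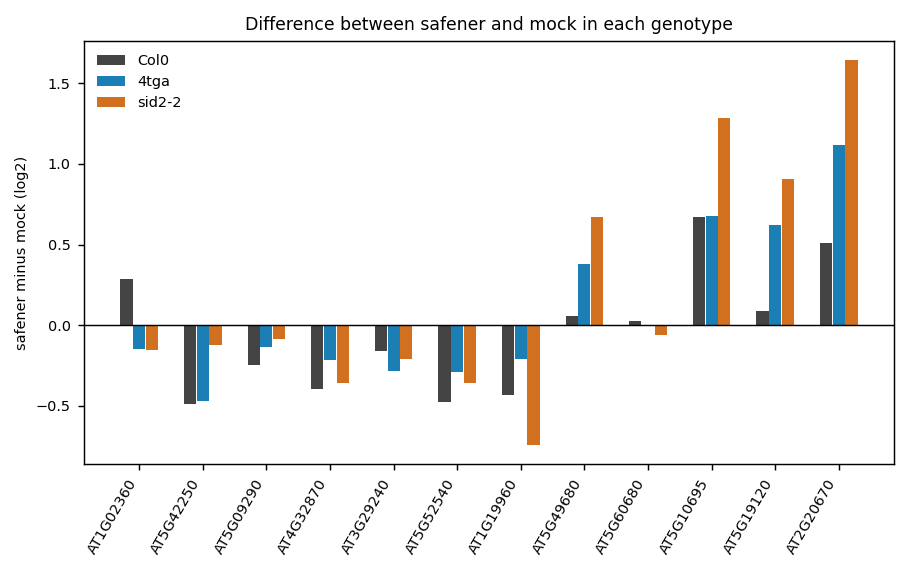
Mean log2 difference between safener and mock in Col0 (grey), 4tga (blue) and sid2-2 (orange) for the 12 genes, as bars from 0 with no error because the same mock arrays chose the genes. AT5G49680, AT5G10695, AT5G19120 and AT2G20670 have positive bars in all genotypes, and those of sid2-2 are the longest.

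The limits of the rule decided part of the membership. AT5G10695 (-0.53 and -0.60 in 4tga and sid2-2), AT5G52540 (-0.53 and -1.03) and AT1G19960 (-2.22 and -0.54) lay just inside the limit of 0.5 in mock. AT1G71170 (-0.54 and -0.48), AT3G51330 (-0.48 and -1.44) and AT1G34420 (-0.48 and -0.48) lay just outside. When any single mock array was left out, 7 genes were kept each time, and AT1G19960, AT2G20670, AT5G09290, AT5G10695 and AT5G60680 were lost with some array. Without the Col0 mock array of replicate 1, 24 genes met the rule, 11 of them among the 12.

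Genes of salicylic acid and related pathways were read from the same fits. Of 31 salicylic acid response genes, 3 were measured under their own name. All 3 were on the list of names that the rule left out. In mock, GRX480 (-1.78 in 4tga and -1.32 in sid2-2) and AT5G03350 (-0.82 and -2.10) were already below Col0. Under safener 1 of the 3 was lower in 4tga than in Col0 and all 3 were lower in sid2-2 (list medians -0.28 and -0.87). GRX480, a glutaredoxin that binds TGA factors, was at 62.4 ± 9.10 in 4tga and 378 ± 23.2 in Col0 (SD, n = 3 arrays each, log2 difference -2.61). In sid2-2 the difference of GRX480 was -0.87 (adjusted p = 0.000865). AT5G03350 was lower in sid2-2 (-2.16, adjusted p = 3e-09), as was SAG101, a lipase-like protein of defence signalling (-0.43, adjusted p = 0.0454). Between the mutants, GRX480 was higher in sid2-2 and AT5G03350 and SAG101 were lower.

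Of 13 jasmonate genes, 2 were tested against Col0 and both were higher in each mutant. They were the defensin gene PDF1.2 (2.39 in 4tga and 2.61 in sid2-2) and PDF1.2b (1.54 and 1.68). The probe set of PDF1.2b has the suffix x_at, used where probes may also bind similar transcripts, so the 2 genes may share signal. THI2.1, a thionin gene, was lower in sid2-2 than in 4tga (-2.08, adjusted p = 2.46e-05). Of 7 senescence genes 2 were measured, and WRKY53, a transcription factor of leaf senescence, was lower in sid2-2 than in Col0 (-1.04) and than in 4tga (-0.91). Of 13 secretion genes 2 were measured, and CRT1b, a calreticulin, was lower in sid2-2 than in Col0 (-0.44, adjusted p = 0.00617). The 1 measured clock gene of 16, GI, was not called in any comparison. Of 6 housekeeping genes 3 were measured, with 1 call, AT4G33380, higher in sid2-2 than in Col0 (0.36, adjusted p = 0.0145). No nitrate assimilation gene of 5 was measured.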

How the data were processed

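The authors deposited 1 linear intensity per probe set and array. RMA is the tool named, with no version, in the submitters' processing notes. The listed values of each array had a median of 200, and 27.9% to 35.7% of values per array were blank. The sources used here do not state which step gave this scale or what made the blanks. Here each intensity was converted to log2 with no rescaling, and blanks were left missing. Means of the 6 groups were fitted to all 18 arrays with lmFit and eBayes (limma 3.58.1 in R 4.3.3), and p values were adjusted by Benjamini-Hochberg over all probe sets that had at least 2 values in each group of a comparison. The fit was tested on simulated data. The 12 genes and the gene lists were chosen with earlier results of these data known. Every member is named, each with its values on every array. Gene names come from the array's platform annotation, and roles are general background. The 3 arrays per group limit the precision. Replicate numbers were not taken as pairs, and the labels do not say whether same-numbered samples belong together. Alternatives left out single arrays or changed the fit, the scaling, the pseudocount (32) or the filter. No promoter or protein sequence was used here.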

Additional observations from a re-analysis of the deposited data

Results flagged for a closer look

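For 5 genes the mutants differed under safener by the limma test of sid2-2 against 4tga. The log2 difference was 1.15 for AT1G19960 and 0.54 for AT5G10695, which were higher in sid2-2. It was -0.50 for AT4G32870, -0.91 for AT5G09290 and -0.56 for AT5G52540, which were lower in sid2-2. All arrays of the mutants were apart for these genes.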

How the results depend on the processing

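The number of genes meeting the rule was 11 to 24 when 1 mock array was left out, 34 with a limit of 0.4 and 6 with a limit of 0.6. The count called lower in 4tga against Col0 was 5 to 9 without 1 array. In sid2-2 against Col0 it was 6 to 8. With the replicate number as a block (replicate block), 9 genes were lower in 4tga and 9 in sid2-2, where AT5G49680 was added (-0.38), and 3 were lower and 2 higher in sid2-2 against 4tga. The correlations of same-numbered arrays, as deviations from their group means, ran from -0.179 to 0.463. The highest was that of replicate 1 in sid2-2 safener and Col0 safener. These values do not settle whether the samples were paired, and the numbers were not taken as pairs. Over all probe sets, array weights called 1670 lower and 2931 higher in 4tga against Col0 (628 and 1309 without weights). In sid2-2 against Col0 they called 1132 and 2759 (622 and 1332 without). In sid2-2 against 4tga they called 1630 and 2014 (1143 and 1191 without). The lowest counts over the alternatives were 425 and 679, 443 and 739, and 772 and 811 in the same order. AT5G09290 was not tested where fewer than 2 sid2-2 safener values remained or where values on all arrays were required. No called difference of a gene reversed under these alternatives. Blanks, whose cause is not stated, leave changes from an unlisted level unmeasured.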

Other observations

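Around their group means over the 18 arrays, the 11 genes with values on all of them (AT5G09290 had 1 blank) had a median pairwise correlation of 0.106 (55 pairs, range -0.505 to 0.737), of which 6 pairs exceeded 0.5 and 22 were below 0. The highest values were those of AT2G20670 with AT5G19120 (0.737) and of AT5G19120 with AT5G49680 (0.725). The genes share arrays and array scale, and the values are a description.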
